A study of Homo sapiens with 21 samples.

Results

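RNA of K562 cells labelled as overexpressing NMYB was compared with RNA of K562 cells carrying an empty vector. NMYB is an N-terminally truncated form of the transcription factor MYB. The comparison holds 3 NMYB libraries and 3 empty-vector libraries, chosen by their labels as 6 of the 21 libraries of the series. K562 is an established human leukaemia line with erythroid and megakaryocytic features. Both groups were grown in the same medium, RPMI 1640 with 10% fetal bovine serum, with no other agent named. A further 3 libraries of cells labelled as overexpressing MYB are in the same count table and serve as a second comparison. The labels name no batch. The labels call NMYB and MYB overexpression genotypes and give no vector, promoter, dose or time, and the sources used here do not say where the NMYB coding sequence begins or whether replicates were separate cultures. P-values therefore measure the spread between these libraries, which may be technical.

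MYB encodes c-Myb, which binds DNA through repeats near its N terminus, activates transcription through a central domain and carries a C-terminal region that restrains it. It keeps blood progenitors dividing and immature, and its level falls as red cell precursors mature. K562 cells depend on the BCR-ABL1 kinase and make fetal and embryonic globins.

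Total gene counts ranged from 16552237 to 19919918 in NMYB libraries and from 17672678 to 20276276 in empty-vector libraries. The MYB transcript (chromosome 6) stood at 215, 202 and 217 CPM (counts relative to the scaled library total) in NMYB libraries, against 216, 210 and 219 CPM in empty-vector libraries. The groups overlapped, with a log2 fold change of −0.03 (SE 0.0439, adjusted p = 0.727 by edgeR) and a 95% interval of the fold of 0.922 to 1.047. The MYB count thus did not show the labelled overexpression. Reads from a construct are not separated from those of the endogenous gene, and why the count did not rise was not tested. All 10 of the K562 markers examined passed the count filter, with a summed unscaled level of 2121 to 2170 CPM in NMYB libraries and 2391 to 2428 CPM in empty-vector libraries. Some markers of other cell types also passed the filter. Of 9 granulocyte and monocyte markers 3 were tested, with sums of 39.3 to 42.2 CPM in NMYB libraries and 25.7 to 30.9 CPM in empty-vector libraries, mostly LYZ, and ELANE had 0 counts in all 6 libraries. Of 6 lymphoid markers 3 were tested, with sums of 112 to 126 CPM in NMYB libraries and 143 to 149 CPM in empty-vector libraries, mostly PTPRC and CD3D, and MS4A1 had 0 counts. The sums of the epithelial and kidney list (2 of 6 tested, mostly EPCAM, with KRT5 and PAX2 at 0) and of the megakaryocyte list (3 of 6 tested, mostly ITGA2B, with GP9 and PF4 at 0) overlapped between the groups, at 59.7 to 66.4 CPM and 26.9 to 33.0 CPM in NMYB libraries and 63.3 to 67.3 CPM and 28.7 to 30.0 CPM in empty-vector libraries. Of 5 fibroblast markers 2 were tested, with sums of 9.14 to 9.91 CPM in NMYB libraries and 10.6 to 11 CPM in empty-vector libraries, and LUM had 0 counts. The part of these genes in the results was not tested.

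NMYB 2 stood apart from the other NMYB libraries. In a chi-square test of gene counts, the statistic divided by its degrees of freedom was 7.73 against NMYB 1 and 8.04 against NMYB 3. It was 1.59 between NMYB 1 and NMYB 3 and 1.92 to 4.87 between pairs of empty-vector libraries. Among the genes in the highest of 5 equal bins of GC content, the median level relative to the empty-vector mean was 0.24 (log2) in NMYB 2 and 0.05 and 0.04 in NMYB 1 and NMYB 3, against −0.08, 0.07 and 0.01 in empty vector 1, 2 and 3. NMYB 2 and empty vector 1 therefore lay at opposite ends of this GC trend, and counts are given with and without them where they matter.

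edgeR called 3945 of 15823 tested genes (24.9%) at an adjusted p below 0.05, 1987 of them (12.6%) higher in NMYB libraries and 1958 (12.4%) lower. Most changes were small: the median size among called genes was 0.33 on the log2 scale, and 223 genes were at least 2-fold higher and 144 at least 2-fold lower. The median over all tested genes was 0.01. The 3 NMYB values lay wholly above or below the 3 empty-vector values in 38.9% of tested genes. This held for 3840 of the 3945 called genes, so a lack of overlap adds little to a call. Without NMYB 2 the test called 3900 genes and without NMYB 2 and empty vector 1 it called 3506, of which 2764 were also called with all libraries, each in the same direction. In each of the 6 fits that left out a single library, 2099 of the 3945 calls were made in the same direction. These fits called 2711 to 3900 genes in all. The fewest were called without empty vector 1, 1337 of 16112 tested genes higher and 1374 lower. Counts of gene lists in these fits are to be read beside these totals.

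**Figure D1:**
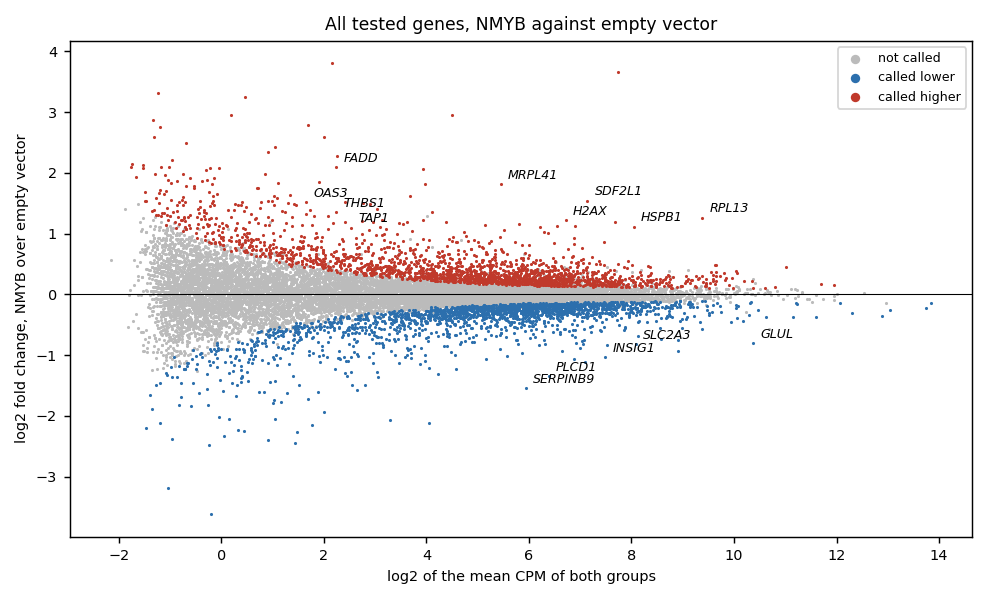
Each point is a tested gene, with the log2 of its mean CPM over both groups on the x axis and the log2 fold change, NMYB over empty vector, on the y axis; genes called higher are red, called lower blue and not called grey. GLUL and SLC2A3 fell and RPL13 rose at high levels, while FADD and OAS3 rose at levels below 10 CPM. Genes called at least 2-fold higher and at least 2-fold lower both had low median levels in NMYB libraries (1.43 and 0.826 CPM).

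Most genes of sterol and fatty acid synthesis were called lower in NMYB libraries, and 4 were called higher. The shares over all tested genes were 12.4% lower and 12.6% higher. Cells make cholesterol through the mevalonate pathway, and SREBP transcription factors, released from the endoplasmic reticulum when sterols are scarce, switch on its enzymes and much of fatty acid synthesis. INSIG1, which holds the SREBP complex in the endoplasmic reticulum (chromosome 7, 155297776 to 155310235), stood at 121, 114 and 118 CPM in NMYB libraries, against 246, 240 and 235 CPM in empty-vector libraries. Its 3 NMYB values lay at about the same level and far below every empty-vector value (−1.03, SE 0.0458, adjusted p = 1.62e-11).

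Of 20 sterol synthesis enzymes tested, 2 were called higher and 13 lower, with a median log2 fold change of −0.29. Without NMYB 2 the counts were 1 and 14, and without empty vector 3 they were 2 and 10. HMGCS1, which makes the precursor of mevalonate, stood at 98.6, 91.5 and 99.2 CPM in NMYB libraries and at 174, 160 and 161 CPM in empty-vector libraries (−0.78, SE 0.0537, adjusted p = 7.59e-09). The groups did not overlap. MSMO1, a C4 demethylase late in the pathway, changed most, to 26, 18.6 and 25 CPM in NMYB libraries, against 51, 48.2 and 47 CPM (−1.06, SE 0.0897, adjusted p = 1.80e-07). The pair called higher was PMVK, the phosphomevalonate kinase gene (0.54, adjusted p = 3.41e-04), and TM7SF2, a sterol reductase gene (0.39, adjusted p = 0.0223), whose call ended without NMYB 2 (adjusted p = 0.0950) and without empty vector 1 (adjusted p = 0.107).

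Of 14 genes of sterol sensing, uptake and export, 0 rose and 8 fell (median −0.27), with or without NMYB 2, and 2 rose and 7 fell without NMYB 1. STARD4, a sterol carrier, stood at 32, 27.5 and 34.9 CPM in NMYB libraries, against 62.8, 61.5 and 66.3 CPM with empty vector (−1.01, SE 0.0749, adjusted p = 1.90e-08), with no overlap between the groups. SREBF2, which encodes the SREBP of sterol genes, fell by 0.29 (adjusted p = 5.59e-04).

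Fatty acid synthesis genes counted 2 higher and 13 lower of 16 (median −0.31), 1 and 12 without NMYB 2, and 2 and 9 without empty vector 1. FADS1, the delta-5 desaturase of polyunsaturated fatty acids, stood at 355, 349 and 372 CPM in NMYB libraries, against 621, 590 and 607 CPM in empty-vector libraries (−0.76, SE 0.0396, adjusted p = 1.68e-10). ACSS2, which makes acetyl-CoA from acetate, fell by 0.82, ACSL4, which activates arachidonic acid, by 0.54 and LPIN1, a phosphatidate phosphatase, by 0.52. FASN, the fatty acid synthase itself, stood at 746, 981 and 774 CPM with NMYB and at 1026, 1232 and 1180 CPM with empty vector (−0.46, adjusted p = 0.0225), a call that ended without NMYB 3 (adjusted p = 0.0747). The 2 genes called higher were ELOVL1, an elongase of very long chains (0.24), and MID1IP1, which promotes acetyl-CoA carboxylase assembly (0.36, and not called without NMYB 2, adjusted p = 0.115).

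**Figure D2:**
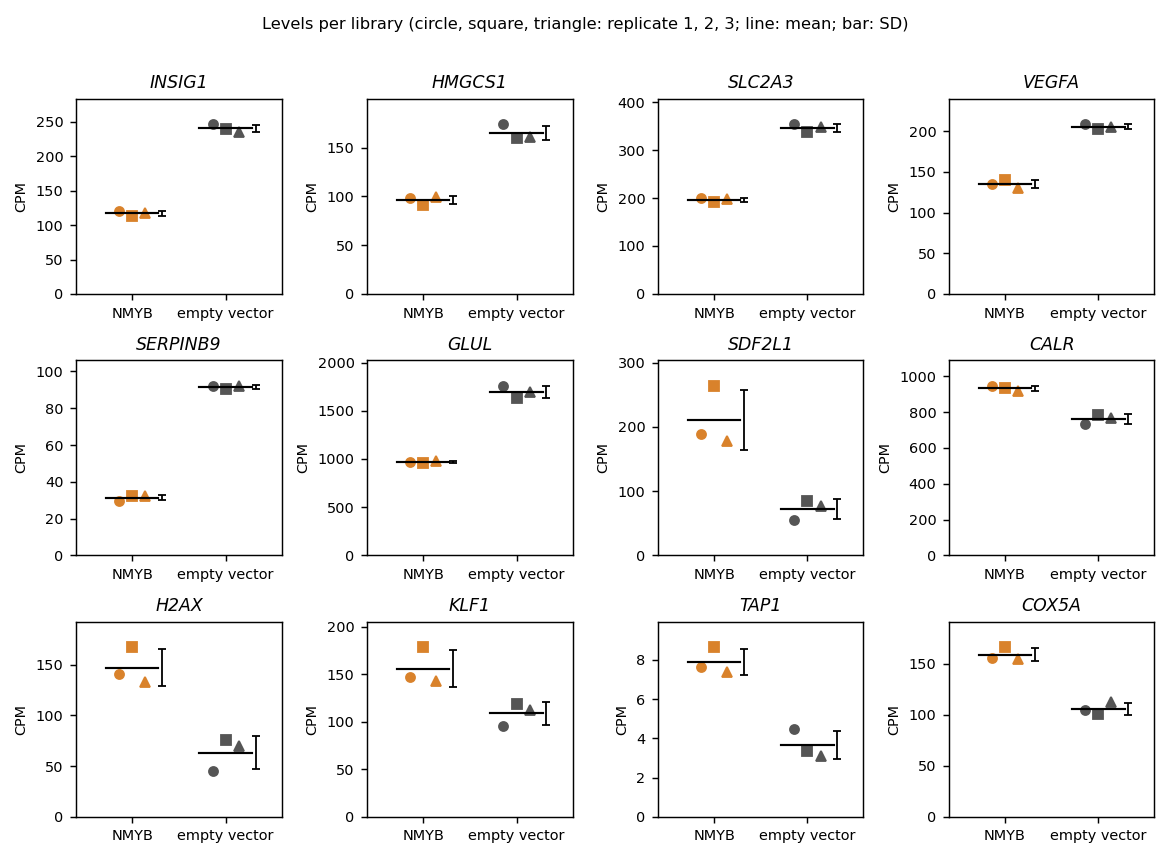
Scaled CPM of 12 genes per library, with NMYB libraries on the left and empty-vector libraries on the right of each panel; symbols mark replicates, horizontal lines means and bars the SD of 3 libraries. The groups do not overlap in any of the 12 panels, and SDF2L1, H2AX and KLF1 are highest in NMYB 2. All 12 were taken from called genes, of which 3840 of 3945 have groups without overlap, so this adds no support.

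Of the genes of glycolysis and of the hypoxia response, 15 of 24 and 12 of 20 were called lower, against 12.4% of all tested genes. HIF transcription factors raise many glycolytic genes when oxygen is short, and K562 cells, like most leukaemia lines, use glycolysis in full oxygen. Of 24 glycolysis genes tested, 0 rose and 15 fell (median −0.20), and 17 fell without NMYB 2. Without NMYB 3 the counts were 1 and 13. SLC2A3, a high-affinity glucose transporter gene, stood at 199, 191 and 198 CPM in NMYB libraries, against 353, 337 and 348 CPM with empty vector (−0.82, SE 0.0418, adjusted p = 1.22e-10). ALDOC, the brain-type aldolase gene, stood at 77.5, 80.6 and 69.4 CPM with NMYB and at 167, 159 and 151 CPM with empty vector (−1.07, SE 0.0608, adjusted p = 4.98e-10). PDK1, whose product keeps pyruvate out of the mitochondrion, fell by 0.64, LDHA, which makes lactate, by 0.37 and PKM, the last kinase of the pathway, by 0.33.

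Hypoxia response genes counted 2 higher and 12 lower of 20 (median −0.22), 2 and 10 without NMYB 2, and 2 and 8 without empty vector 1. VEGFA, an angiogenic factor gene, stood at 135, 140 and 130 CPM in NMYB libraries, against 208, 203 and 205 CPM (−0.61, SE 0.0479, adjusted p = 4.72e-08). BHLHE40, a hypoxia-induced repressor gene, stood at 67.2, 72.4 and 66.0 CPM with NMYB and at 131, 130 and 132 CPM with empty vector (−0.94, SE 0.0516, adjusted p = 3.12e-10). CA9, the carbonic anhydrase widely used as a hypoxia marker, had 2, 1 and 4 counts in NMYB libraries, against 32, 27 and 30 counts in empty-vector libraries, too few for a useful fold (adjusted p = 1.11e-05). VHL, the ubiquitin ligase subunit that marks HIF for degradation, rose by 0.32 (adjusted p = 5.78e-04). NDRG1, a stress-induced gene, also rose, to 4.09, 5.32 and 5.21 CPM against 2.50, 3.44 and 2.60 CPM (0.78, adjusted p = 0.00172). HIF1A itself stood at −0.05 (adjusted p = 0.637).

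Several genes outside these pathways showed the smallest p-values. SERPINB9, which blocks granzyme B (chromosome 6, 2887266 to 2903280), stood at 29.7, 32.1 and 32.5 CPM in NMYB libraries, against 91.9, 90.5 and 92.2 CPM with empty vector, which gives −1.54 (SE 0.0558, adjusted p = 1.58e-12). GLUL, glutamine synthetase (chromosome 1, 182381704 to 182392206), fell to 972, 955 and 979 CPM in NMYB libraries, against 1759, 1633 and 1697 CPM (−0.81, SE 0.0379, adjusted p = 3.10e-11). EPHB6, an ephrin receptor without kinase activity, fell by 1.10 and ST6GAL1, which adds sialic acid to glycans, by 0.83. Replicate values of these genes lay close together, and no group overlapped another, but the genes were named for their calls in this same test.

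Replication-dependent histone genes, whose transcripts mostly end in a stem-loop and lack a poly(A) tail, counted 0 higher and 20 lower of 41 (median −0.30). Over all tested genes 12.6% were called higher and 12.4% lower. The histone counts were 0 and 21 without NMYB 2 and 0 and 15 without empty vector 3. H2BC7 stood at 4.64, 7.02 and 6.14 CPM in NMYB libraries, against 10.9, 10.1 and 9.72 CPM (−0.80, adjusted p = 1.23e-04), and H1-2 fell by 0.44 and H2BC21 by 0.55. Histone genes have near-identical coding sequences, so single members are uncertain. Of 7 histone variant genes with poly(A) tails, 4 rose and 0 fell. H2AX, the variant phosphorylated at DNA breaks, stood at 141, 167 and 133 CPM in NMYB libraries, against 44.9, 75.3 and 69.5 CPM (1.22, SE 0.206, adjusted p = 0.00602), with empty vector 1 the lowest of all. H1-10 rose by 0.53 and H3-3B by 0.22.

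Against 12.6% called higher and 12.4% lower over all tested genes, 0 of 35 DNA replication genes rose and 6 fell. The counts were 4 and 6 without NMYB 2, 0 and 3 without empty vector 1 and 1 and 3 without empty vector 2. Of 33 genes of mitosis and the spindle checkpoint 1 rose and 11 fell (median −0.07). TOP2A, the topoisomerase of dividing cells, stood at 496, 428 and 493 CPM with NMYB and at 635, 585 and 608 CPM with empty vector (−0.37, adjusted p = 1.11e-04). BUB1, a spindle checkpoint kinase, fell by 0.39, CENPE, a kinetochore motor, by 0.39 and ASPM, a spindle pole protein gene, by 0.36. Among 20 G1 cyclin and inhibitor genes 6 rose and 1 fell, but without empty vector 1 the counts were 1 and 1. CDKN2C, an inhibitor of CDK4 and CDK6, stood at 70.3, 75.6 and 66.9 CPM in NMYB libraries, against 40.8, 51.9 and 51.1 CPM (0.57, adjusted p = 5.00e-05), and RBL2, a retinoblastoma family gene, fell by 0.34.

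Among genes of ribosomes and of mitochondrial translation and respiration encoded in the nucleus, more were called higher than lower, and many were not called. Over all tested genes the shares were 12.6% higher and 12.4% lower. Mitochondria translate 13 respiratory chain proteins on their own ribosomes, while all other subunits, and all mitochondrial ribosomal proteins, are encoded in the nucleus. Of 77 mitochondrial ribosomal protein genes tested, 38 rose and 0 fell (median 0.19). The counts were 40 and 0 without NMYB 2 and 30 and 0 without NMYB 1. MRPL41 stood at 63.2, 85.2 and 55.6 CPM in NMYB libraries, against 15.1, 21.5 and 21.6 CPM (1.81, SE 0.239, adjusted p = 0.00178). MRPS26 stood at 34.1, 42.6 and 31.4 CPM with NMYB and at 13.9, 19.9 and 22.1 CPM with empty vector (0.95, adjusted p = 0.00252). MRPL55 and MRPL54 rose by 0.53 and 0.52.

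Nuclear genes of complex I, which takes electrons from NADH, counted 20 higher and 1 lower of 38 (median 0.18), and 16 and 0 without NMYB 2. NDUFAB1, which is also the mitochondrial acyl carrier protein, stood at 121, 112 and 113 CPM in NMYB libraries, against 46.6, 76.2 and 71.1 CPM (0.84, SE 0.157, adjusted p = 0.00654). NDUFB10 rose by 0.61 and NDUFS3, a core subunit, by 0.39. NDUFS1, the core subunit called lower, stood at −0.14 (adjusted p = 0.0366), a call that ended without NMYB 1, NMYB 2, empty vector 1 or empty vector 3 (adjusted p = 0.0907, 0.0671, 0.125 and 0.107).

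Nuclear genes of complexes II to V counted 13 higher and 1 lower of 38, and 7 and 1 without empty vector 3. By complex, 0 of 4 genes of complex II were called, 2 of 9 rose and 1 fell in complex III, 4 of 10 rose in complex IV and 7 of 15 rose in complex V, the ATP synthase. COX5A, a subunit of complex IV, stood at 156, 166 and 155 CPM in NMYB libraries, against 104, 100 and 113 CPM (0.59, SE 0.0530, adjusted p = 2.81e-07). UQCRC2, a core subunit of complex III, fell by 0.20 (adjusted p = 0.00315).

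Of 15 transcripts of the mitochondrial genome, 1 was called higher, 8 lower and 6 not called (median −0.20), with 2 higher and 7 lower without NMYB 2. MT-CYB and MT-ND2 were among those not called (0.07 and 0.01). MT-CO2, a catalytic subunit of complex IV, stood at 6911, 6369 and 6736 CPM in NMYB libraries, against 8970, 8033 and 8477 CPM (−0.35, SE 0.0479, adjusted p = 5.45e-05). MT-ND5 of complex I fell by 0.36 and the large ribosomal RNA MT-RNR2 by 0.31. MT-ND4L and MT-ND4, which overlap on the genome, stood at −0.37 and −0.25. MT-ND3 was called higher with overlapping groups (0.22, adjusted p = 0.0480), a call that ended without NMYB 1 or 3 or empty vector 2 or 3 (adjusted p = 0.183, 0.149, 0.134 and 0.0738).

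**Figure D3:**
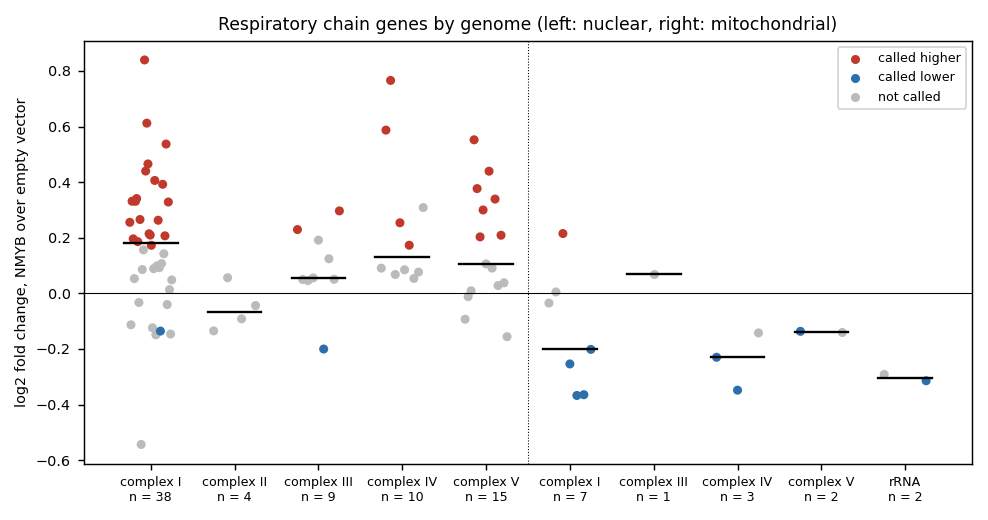
Log2 fold change, NMYB over empty vector, of each tested respiratory chain gene by complex, with nuclear genes left of the dotted line and mitochondrially encoded genes right of it; lines are medians and colours mark the edgeR call. Medians are 0.18 for nuclear complex I and −0.20 for mitochondrially encoded complex I.

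Cytosolic ribosomal protein genes counted 16 higher and 0 lower of 32 for the small subunit (median 0.15) and 20 higher and 1 lower of 47 for the large subunit (median 0.10). These genes have many processed copies, so single members are uncertain. RPL13 stood at 908, 1124 and 790 CPM in NMYB libraries, against 330, 434 and 416 CPM (1.26, SE 0.166, adjusted p = 0.00209), and RPL38 stood at 378, 406 and 351 CPM, against 278, 276 and 279 CPM (0.45, adjusted p = 1.97e-06). Of 25 ribosome biogenesis genes 9 rose and 0 fell (median 0.09). RRS1, needed for assembly of the large subunit, rose by 0.75, RRP9, which binds the U3 small nucleolar RNA, by 0.35 and BYSL, of small subunit assembly, by 0.29. Of 23 small nucleolar RNA host genes 10 rose and 0 fell (median 0.23), among them SNHG19 (0.55, adjusted p = 1.08e-04).

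Transcript length and GC content moved with the calls. The list medians were 1727 bases for mitochondrial ribosomal proteins and 1350 bases for nuclear complex I, against 3094 bases over all tested genes, and in the shortest of 5 equal length bins 16.6% were called higher and 4.95% lower. In the longest bin 6.38% were called higher and 24.4% lower. This difference was present in each NMYB library, with median levels relative to the empty-vector mean of 0.09, 0.09 and 0.07 (log2) in the shortest bin and −0.08, −0.10 and −0.06 in the longest. By GC content, 6.25% of the lowest bin and 23.2% of the highest bin were called higher. With each library's GC trend removed, 13.7% were called higher and 14.9% lower in the lowest GC bin, and 19.1% higher and 21% lower in the highest. In the shortest length bin 18.3% were then called higher and 6.37% lower, and in the longest bin 9.75% higher and 29.8% lower. The mitochondrially encoded and histone transcripts are short as well (list medians 954 and 681 bases), and 8 of 15 and 20 of 41 were called lower. Median GC content was 47.6% for mitochondrial ribosomal proteins and 48.3% for nuclear complex I, against 48.3% over all tested genes. With the GC trend removed, 43 of 77 mitochondrial ribosomal protein genes rose and 0 fell, and 21 of 38 nuclear complex I genes rose and 2 fell. How far length and GC account for the rise of the short nuclear genes was not tested further.

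**Figure D4:**
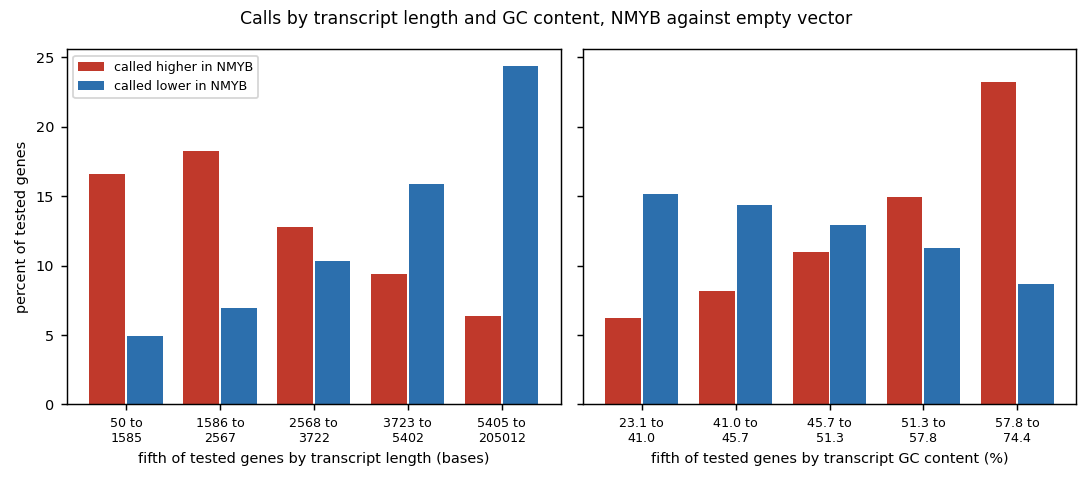
Percent of tested genes called higher (left bar) and lower (right bar) in NMYB libraries, in 5 equal bins of tested genes by transcript length in bases and by transcript GC content in percent. The share called higher is 16.6% in the shortest and 6.38% in the longest bin, and 6.25% in the lowest and 23.2% in the highest GC bin.

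Most chaperone genes were not called, and over all tested genes 12.6% were called higher and 12.4% lower. Of 20 endoplasmic reticulum chaperone genes 6 rose and 0 fell. Without empty vector 1, where 1337 of 16112 tested genes were called higher, 3 of them rose. SDF2L1, a partner of the chaperone BiP (chromosome 22, 21642261 to 21644298), stood at 189, 264 and 178 CPM in NMYB libraries, against 55.0, 84.9 and 76.6 CPM (1.54, SE 0.218, adjusted p = 0.00295). CALR, a lectin chaperone, stood at 947, 935 and 918 CPM with NMYB and at 731, 785 and 768 CPM with empty vector (0.29, SE 0.0373, adjusted p = 1.37e-05), and MANF, a secreted stress factor, rose by 0.38. HSPA5, which encodes BiP, was not called (−0.08, adjusted p = 0.129).

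Of 18 cytosolic heat shock chaperone genes 6 rose and 0 fell, but 3 rose without empty vector 1 and 3 without empty vector 3. HSPB1, a small heat shock protein gene, stood at 344, 421 and 320 CPM in NMYB libraries, against 145, 186 and 171 CPM (1.11, SE 0.117, adjusted p = 2.04e-04). HSPA1A and its near-identical copy HSPA1B cannot be told apart with certainty and stood at 0.31 and 0.21. HSP90AA1 was not called (−0.02, adjusted p = 0.839). Among 21 amino acid stress genes, most of them ATF4 targets, 7 rose and 1 fell, but 4 rose without NMYB 1, 4 without empty vector 1 and 3 without empty vector 3, with 1 falling each time. SLC3A2, the heavy chain of amino acid exchangers, rose by 0.49, DDIT3, which encodes CHOP, by 0.38 and CEBPB, which is both a stress gene and a reported MYB target, by 0.99.

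Among 15 genes of death receptors and their adaptors and effectors 4 rose and 3 fell, against 12.6% and 12.4% of all tested genes. FADD, the adaptor that brings caspase-8 to these receptors, stood at 7.02, 9.62 and 6.35 CPM in NMYB libraries, against 1.45, 2.12 and 1.81 CPM (2.09, SE 0.226, adjusted p = 7.01e-06). ENDOG, a mitochondrial nuclease gene, rose by 2.28 and TRADD, an adaptor of TNF receptor 1, by 0.83. CFLAR, which blocks caspase-8 at the receptor, stood at 76.1, 77.7 and 79.3 CPM with NMYB and at 112, 106 and 112 CPM with empty vector (−0.50, adjusted p = 9.67e-07), and TNFRSF10B, a TRAIL receptor gene, fell by 0.46. Of 20 BCL2 family and mitochondrial apoptosis genes 4 rose and 3 fell, but 2, 0, 1 and 1 rose without NMYB 2, empty vector 1, empty vector 2 and empty vector 3. MCL1, a survival factor gene, fell (−0.32, adjusted p = 2.60e-05).

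Interferon response genes and genes of MHC class I presentation were called higher more often than lower, most of them at low levels. Over all tested genes the shares were 12.6% higher and 12.4% lower. With a filter of a mean of at least 5 CPM, as many interferon response genes rose as fell, 2 each of 9. Past that filter 1 of 6 MHC class I genes rose and 0 fell. Interferons act through a complex of STAT and IRF proteins that binds the interferon-stimulated response element. This element was searched as GAAA, any 2 bases and GAAA on both strands, from 250 bases before to 50 bases after the RefSeq start. It was found in 10 of the 15 interferon response genes and 6 of the 10 MHC class I genes that have a promoter in the RefSeq table (GRCh38.p14), in 2.69% of tested genes with a promoter there and in 3.65% of all 27304 promoters of the table, counting the first listed start of each gene. The stretches below, all from before the start, show the match in capitals in genes of both lists that rose and, last, in IFITM1, which fell. They are written 5′ to 3′ in the direction of the gene.
OAS3, chr12:112938311-112938360, plus strand: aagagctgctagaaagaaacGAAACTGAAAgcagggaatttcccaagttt
IFIH1, chr2:162318685-162318725, minus strand: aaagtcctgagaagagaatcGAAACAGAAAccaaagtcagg
ISG15, chr1:1013370-1013419, plus strand: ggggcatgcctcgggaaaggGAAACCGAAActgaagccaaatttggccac
TAP1, chr6:32853803-32853852, minus strand: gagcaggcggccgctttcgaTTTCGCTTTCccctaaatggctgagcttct
IFITM1, chr11:313980-314029, plus strand: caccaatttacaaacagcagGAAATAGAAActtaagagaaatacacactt
In TAP1 the match is on the opposite strand. The element also lay before the start of genes that were not called. Among these were IFITM3, IFI6, ISG20 and IFI27 of the interferon list and PSMB10, B2M, TAPBP and TAP2 of the MHC class I list. A match describes these letters in this window and not a bound site.

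Of 20 interferon response genes 7 rose and 2 fell (median 0.18), 6 and 2 without NMYB 2, and 4 and 1 without empty vector 3. OAS3, which makes the activator of RNase L, stood at 4.09, 5.08 and 4.95 CPM in NMYB libraries, against 1.95, 1.32 and 1.58 CPM (1.52, SE 0.220, adjusted p = 6.07e-05). IFIH1, the RNA sensor MDA5, had 20, 16 and 17 counts with NMYB and 2, 5 and 6 counts with empty vector (1.99, SE 0.385, adjusted p = 8.84e-04). ISG15, a ubiquitin-like modifier, stood at 11.2, 14.8 and 12.1 CPM with NMYB and at 6.96, 8.76 and 8.93 CPM with empty vector (0.63, adjusted p = 0.00111). IFITM1, a membrane protein that blocks virus entry, was the most abundant of those named and fell to 287, 320 and 288 CPM in NMYB libraries, against 365, 363 and 355 CPM (−0.28, adjusted p = 2.10e-04).

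Of 11 genes of MHC class I presentation 4 rose and 0 fell, and 5 and 1 without NMYB 2. TAP1, a subunit of the peptide transporter, stood at 7.62, 8.65 and 7.39 CPM in NMYB libraries, against 4.45, 3.38 and 3.11 CPM (1.10, SE 0.138, adjusted p = 1.24e-05). PSMB8 and PSMB9, catalytic subunits of the immunoproteasome, stood at 1.2 to 1.62 CPM and 1.09 to 1.27 CPM in NMYB libraries, against 0.170 to 0.450 CPM and 0.229 to 0.450 CPM with empty vector (2.08 and 1.87, adjusted p = 2.05e-04 and 3.78e-04). HLA-C, a class I heavy chain that shares sequence with its relatives, stood at 0.68 (adjusted p = 0.0196) and was not called without empty vector 1 (adjusted p = 0.128) or NMYB 1 (adjusted p = 0.0598). B2M, the class I light chain, was not called (0.11, adjusted p = 0.125).

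MYB recognition sequences were searched in the same windows on both strands, as the hexamer CAACTG, its form ending in GG (CAACGG), and both of these with T as the first base (TAACTG in place of the first hexamer, TAACGG in place of the second). They were found in 26.4% of called-higher, 23.8% of called-lower and 23.9% of uncalled genes with a promoter in the table, against 25.9% of all its promoters. Among the 17 tested genes that have been reported as MYB targets, 4 rose and 3 fell, against 12.6% and 12.4% of all tested genes. LYZ, the lysozyme gene, stood at 37.0, 35.2 and 38.6 CPM in NMYB libraries, against 28.1, 24.4 and 23.3 CPM (0.55, adjusted p = 5.57e-05), and TCF7, a Wnt effector gene, fell by 0.88. MYC was not called (0.02, adjusted p = 0.808), nor was KIT, the stem cell factor receptor gene (0.28, adjusted p = 0.299).

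Against 12.6% higher and 12.4% lower over all tested genes, the erythroid factor, iron and haem synthesis lists had 2 or 3 genes called in each direction. Of 16 erythroid transcription factor genes 3 rose and 3 fell, and 3 and 5 without NMYB 2. KLF1, an activator of adult globin and red cell genes (chromosome 19, 12884422 to 12887199), stood at 147, 179 and 143 CPM in NMYB libraries, against 95.6, 118 and 112 CPM (0.52, SE 0.0869, adjusted p = 8.00e-04), with empty vector 1 the lowest. LMO2, an adaptor in the GATA1 and TAL1 complex, fell by 0.26, and GATA1 stood at −0.10 (adjusted p = 0.0904). Of the 10 tested genes of a list of globins and the globin chaperone gene AHSP, 3 rose and 0 fell: HBQ1 (1.05), HBD (0.42) and HBG1 (0.17, adjusted p = 0.00881), the last of which is near-identical to HBG2. The HBG1 call ended without NMYB 1 (adjusted p = 0.0573) and without empty vector 2 (adjusted p = 0.0547).

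TFRC, the transferrin receptor that brings iron into the cell, stood at 916, 890 and 956 CPM in NMYB libraries, against 1223, 1176 and 1207 CPM (−0.38, SE 0.0387, adjusted p = 9.89e-07). ISCU, a scaffold of iron-sulfur clusters, stood at 72.7, 70.3 and 75 CPM with NMYB and at 50.3, 54.4 and 51.1 CPM with empty vector (0.49, adjusted p = 5.54e-06). In all 3 of 16 iron genes rose and 2 fell, and 3 of 13 haem synthesis genes rose and 2 fell, among them CPOX (−0.38). Without empty vector 3, 1 haem synthesis gene rose. Of 22 red cell membrane and blood group genes 4 rose and 7 fell, with GYPC, glycophorin C, at 0.44 and DMTN, dematin, at −0.35.

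Genes of signalling, cell shape and body patterning moved in both directions, and the shares over all tested genes were 12.6% higher and 12.4% lower. Of 18 cytokine receptor and STAT5 output genes 2 rose and 7 fell, with IL2RG, the common gamma chain, at −0.99 and SOCS3, a feedback inhibitor, at −0.46, while ID1, an inhibitor of basic helix-loop-helix factors, rose by 0.67. Of 15 MAPK feedback genes 0 rose and 3 fell, namely PHLDA1 (−0.93), SPRY4 (−0.54) and ETV4 (−0.20). Immediate early genes counted 4 higher and 4 lower of 17, and 2 and 5 without NMYB 2, with FOS at 13.2, 18 and 14.9 CPM in NMYB libraries, against 28.5, 30.0 and 30.1 CPM (−0.95, adjusted p = 3.69e-07). Of 9 keratin and intermediate filament genes 0 rose and 5 fell, with VIM, vimentin, at −0.45 and NES, nestin, at −0.74. Of 9 megakaryocyte and platelet genes 1 rose and 3 fell: THBS1, thrombospondin, rose by 1.35 and GP6, the platelet collagen receptor gene, fell by 0.82. HOX genes counted 5 higher and 1 lower of 13, with HOXB2 at 57.7, 56.2 and 53.2 CPM with NMYB and 31.0, 38.4 and 33.4 CPM with empty vector (0.70, adjusted p = 6.49e-06), and 3 higher without NMYB 1, NMYB 3 or empty vector 1.

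**Figure D5:**
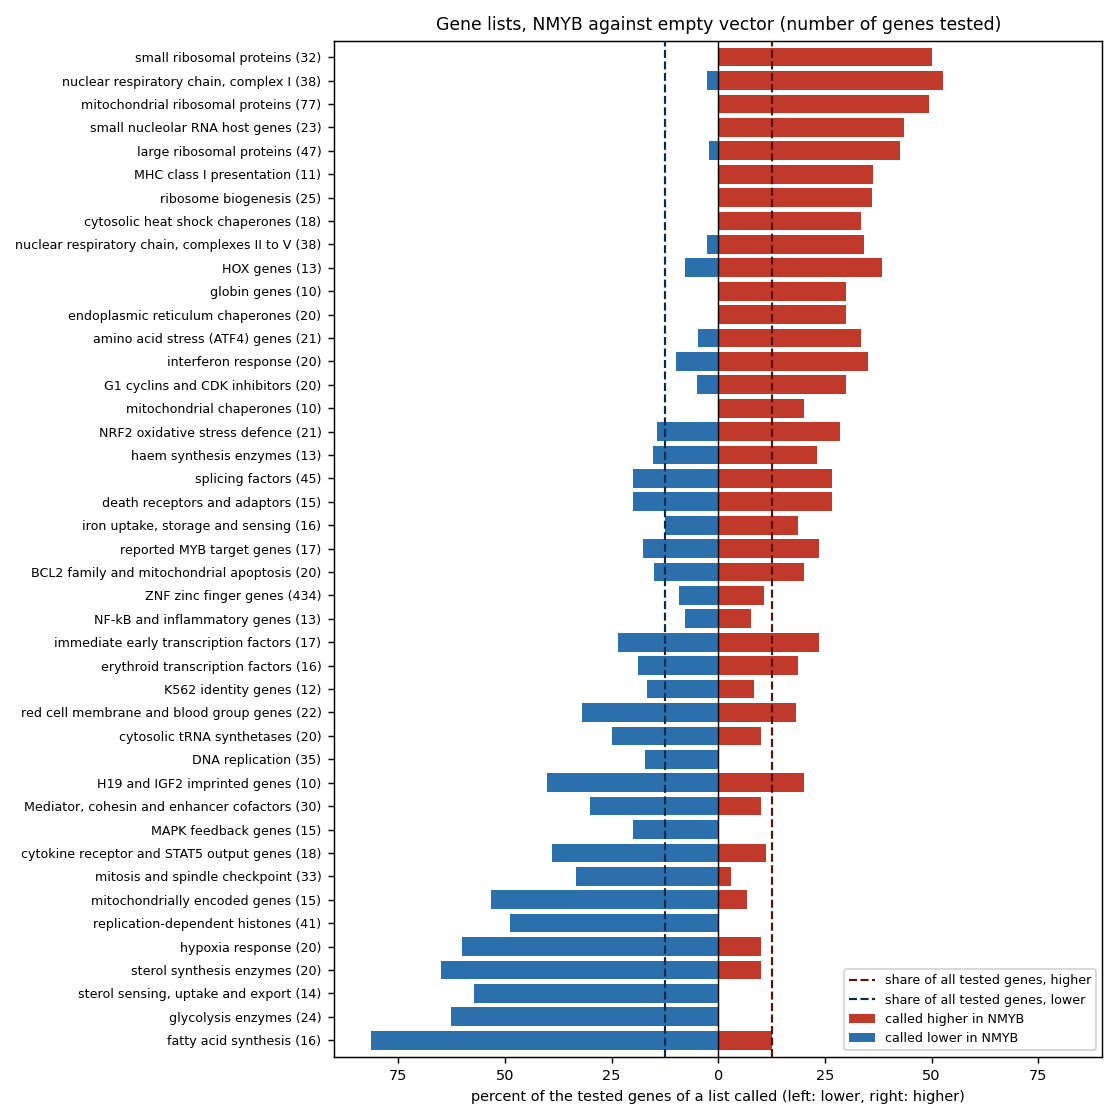
Percent of the tested genes of each list called higher (right, red) and lower (left, blue) in NMYB libraries, for lists with at least 10 tested genes, whose number is in brackets; dashed lines mark the shares over all tested genes, 12.6% higher and 12.4% lower. Lipid synthesis, glycolysis, hypoxia and histone lists extend to the left, and ribosomal protein and nuclear complex I lists to the right.

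The genes with the largest rises, like those with the largest falls, were mostly at low levels. Of the 223 genes called at least 2-fold higher, 130 were highest in NMYB 2, 128 were lowest in empty vector 1 and 86 were both. Their median level was 1.43 CPM in NMYB libraries, against 0.590 CPM with empty vector. For the 144 genes called at least 2-fold lower it was 0.826 CPM in NMYB libraries, against 2.07 CPM with empty vector. The library split was similar among the 1764 genes called higher by less than 2-fold. Of those, 1054 were highest in NMYB 2, 1001 were lowest in empty vector 1 and 738 were both. RAB5IF stood at 7.83, 13.6 and 3.54 CPM in NMYB libraries, against 0.651, 0.286 and 0.791 CPM (3.80, SE 0.700, adjusted p = 0.00795). FTH1, the ferritin heavy chain gene, stood at 352, 586 and 252 CPM with NMYB and at 22.0, 38.7 and 34.5 CPM with empty vector (3.65, adjusted p = 0.00282), and is uncertain because of its many processed copies. The part of library differences in these rises was not tested.

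The direct comparison of NMYB with MYB libraries asks where the effects of the 2 constructs differ. It called 181 of 15823 genes (1.14%), 82 higher (0.518%) and 99 lower (0.626%) in NMYB libraries. With other scalings the share called higher moved from 45.3% of calls to 34.9% (DESeq2's size factors in edgeR) and 36.5% (upper quartile). The calls also depended on single libraries: without MYB 1 edgeR called 0 genes, with 2135 at an unadjusted p below 0.05, and DESeq2 called 399 with all libraries.

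COX5A stood at 156, 166 and 155 CPM in NMYB libraries, against 125, 135 and 129 CPM in MYB libraries (0.29, SE 0.0522, adjusted p = 0.0130). PLCD1, which encodes a lipid-cleaving enzyme, stood at 44.8, 52.0 and 45.1 CPM with NMYB and at 37.2, 35.4 and 35.5 CPM with MYB (0.39, SE 0.0620, adjusted p = 0.00888), and ALDOC at 77.5, 80.6 and 69.4 CPM, against 60.7, 56.7 and 54.3 CPM (0.40, adjusted p = 0.00888). TEAD1, a transcription factor gene of the Hippo pathway, stood at 39.0, 36.7 and 40.4 CPM with NMYB and at 48.4, 49.0 and 50.6 CPM with MYB (−0.35, SE 0.0588, adjusted p = 0.0112). The groups did not overlap for any of these 4 genes, which were chosen by this same test. The comparisons of NMYB and of MYB with empty vector share their 3 controls, so no overlap of their calls is given.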

How the data were processed

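Per the labels' protocols, K562 RNA was isolated with TRIzol and sequenced after TruSeq RNA library preparation. Per the submitters' processing notes, Trimmomatic 0.93, HISAT2 2.2.1, featureCounts 2.0.1 and GRCh38 were used. The authors deposited raw read counts per gene in a single table of 61541 genes and 9 libraries, and all its columns belong to labelled libraries. How strand and multiply aligned reads were handled, and with which annotation release, is not given in the sources used here, so overlapping and near-identical genes cannot be told apart with certainty. Exon bin counts of the other experiments were not used here.

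Counts were fitted with edgeR 4.0.16 in R 4.3.3 over all 9 libraries (3 NMYB, 3 empty vector, 3 MYB), with TMM scaling, filterByExpr at a minimum count of 10, robust quasi-likelihood F tests (two-sided) and Benjamini-Hochberg adjustment over all tested genes. Adjusted p below 0.05 is the threshold of a call. The fit was tested on simulated data. CPM values are scaled by TMM, marker sums are not. Relative levels use a pseudocount of 0.5 CPM. Gene positions, lengths and GC content come from GENCODE 29 and promoters from RefSeq. Alternatives were other scalings, DESeq2 1.42.0, other filters, fewer libraries, removal of a GC trend per library (loess span 0.5) and a replicate block. The fit without both NMYB 2 and empty vector 1 was chosen after seeing the data.

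The comparison, the 52 gene lists and their members were chosen with earlier results of these data known, so list counts are descriptions. Named genes were MYB, the 12 highest and 12 lowest non-overlapping calls with at least 5 CPM in a group, the 10 smallest p-values, up to 4 called members of each list by size with examples that did not pass, and the 6 highest and 6 lowest calls against MYB, from which those described were taken. Other members were named after their values were seen, mostly to complete a short count.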

Additional observations from a re-analysis of the deposited data

Results flagged for a closer look

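For 18 of the named genes the effects of NMYB and of MYB differed in the direct test of NMYB against MYB libraries (edgeR, adjusted p below 0.05). Higher in NMYB libraries, by log2 fold change, were KISS1R (0.86), SYTL1 (0.69), PPM1M (0.64), ID1 (0.57), NT5DC4 (0.55), ACRBP (0.54), ALDOC (0.40), PLCD1 (0.39), DLK1 (0.38), PFKFB4 (0.36), COX5A (0.29) and KRT10 (0.26). Lower in NMYB libraries were POTEE (−0.45), ANKRD36C (−0.43), TATDN2P2 (−0.42), USF3 (−0.38), NCOA2 (−0.36) and TEAD1 (−0.35). POTEE and ANKRD36C belong to families of near-identical copies and TATDN2P2 is a pseudogene, so these 3 are uncertain. In all 18 genes the NMYB and MYB libraries did not overlap, but the genes were chosen by this same test, so this adds no support. None was called when MYB 1 was left out, since that fit called 0 genes.

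Against empty vector, the genes took different positions. ID1 stood at 48.1, 57.0 and 44.7 CPM in NMYB libraries, 33.3, 33.9 and 33.6 CPM in MYB libraries and 24.9, 34.7 and 34.6 CPM in empty-vector libraries. NT5DC4 stood at 6.66, 7.62 and 6.56 CPM in NMYB libraries, 5.69, 4.53 and 3.85 CPM in MYB libraries and 15.5, 14.7 and 15.1 CPM in empty-vector libraries. USF3 stood at 11.3, 12.3 and 12.3 CPM in NMYB libraries, 14.7, 16.1 and 15.9 CPM in MYB libraries and 12.2, 11.5 and 10.7 CPM in empty-vector libraries.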

How the results depend on the processing

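The NMYB vs empty vector count of 3945 calls stayed within 1.5 times of that value under every alternative chosen with the design and under the fit without NMYB 2 and empty vector 1, from 2711 without empty vector 1 to 5181 with the GC trend removed with replicate block. The NMYB vs MYB counts did not. Against 181 calls, 82 higher and 99 lower, DESeq2 gave 399 (166 and 233), no count filter 656 (303 and 353), the 2 groups alone 60 (26 and 34), the replicate block 1184 (700 and 484), the GC trend removed 691 (326 and 365) and both together 796 (402 and 394). Leaving out single libraries gave 0 to 323 calls, 0 to 188 higher and 0 to 171 lower. The causes were not tested. The MYB transcript in NMYB vs empty vector was called in no fit. Its value lay between −0.0513 and 0.0065 with 1 library left out, and its sign turned without NMYB 2. It was 0.0062 without NMYB 2 and empty vector 1, 0.00105 with the GC trend removed and 0.00108 with the replicate block as well. PPM1M, not called against empty vector, lay between −0.151 and 0.036 with 1 library left out, with the sign turned without NMYB 2 (0.00023) and without empty vector 1, and stood at 0.094 without both. PLK1, not called either, lay between 0.0049 and 0.12 with 1 library left out and at −0.0507 without NMYB 2 and empty vector 1. Same-numbered libraries deviated together with r = 0.048, 0.091 and −0.020. With 3 libraries per group this cannot show whether the numbers pair the samples. The replicate block gave 4712 NMYB vs empty vector calls (2377 higher and 2335 lower), and NMYB 1 and NMYB 2, but not NMYB 3, correlated best with their own number. Of 235 named calls, 205 to 219 were kept when 1 library was left out, 229 to 233 under the block and GC fits, and 222 of the 232 with an adjusted p in DESeq2. No named call changed sign. Depth limits the interferon and MHC class I genes at few counts.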

Other observations

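Calls were spread unevenly over chromosomes. On chromosome 19, 19.1% of 1158 tested genes were called higher and 7.69% lower in NMYB libraries, against 12.6% and 12.4% over all tested genes, and on chromosome 18 the shares were 6.22% and 16.7% of 209. The median level of chromosome 19 genes relative to the empty-vector mean was 0.05, 0.15 and 0.05 (log2) in NMYB 1, 2 and 3 and −0.05, 0.05 and 0.01 in empty vector 1, 2 and 3, so NMYB 2 and empty vector 1, which lay at the ends of the GC trend, also lay at the ends here. The part of that trend in the chromosome shares was not tested. Among protein-coding genes 14.4% were called higher and 14.2% lower, and among lincRNAs 7.63% and 8.12%.

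CCAAT boxes were searched in the same windows. They were found in 12 of 15 sterol synthesis genes and 31 of 38 replication-dependent histone genes with a promoter in the RefSeq table. The shares were 37.0% of tested genes with a promoter there and 35.7% of all promoters of the table. The sterol regulatory element, searched as TCACNCCAC on both strands, was found in 0 of the 15 sterol synthesis genes, in SREBF2, which was called lower, among 12 genes of sterol sensing, in MID1IP1, which was called higher, among 15 genes of fatty acid synthesis, in 1.05% of tested genes with a promoter there and in 313 of all its 27304 promoters.

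Splicing factor genes counted 12 higher and 9 lower of 45, and 7 and 5 without empty vector 1. LUC7L2 rose by 0.63 (adjusted p = 1.06e-05), SRSF2 rose by 0.29 and SNRPA fell by 0.30. Of 30 Mediator, cohesin and enhancer cofactor genes 3 rose and 9 fell, and the counts were 6 and 7 without NMYB 2 and 1 and 5 without empty vector 1. Of 434 ZNF zinc finger genes 47 rose and 40 fell, both below the shares over all tested genes of 12.6% and 12.4%, and 34 and 20 without empty vector 1 and 35 and 25 without empty vector 3. The imprinted transcript H19 stood at 1.67, 1.81 and 1.46 CPM in NMYB libraries, against 5.75, 6.30 and 6.95 CPM with empty vector (−1.94, adjusted p = 7.22e-08).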
